A study of Mus musculus with 7 samples.

Results

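Collagens are extracellular proteins whose chains wind around each other into a triple helix. Fibrillar chains build the fibres of connective tissue, type IV chains build the sheet of the basement membrane, type VI chains build beaded filaments, and other classes sit on fibrils or cross the cell membrane. In the fetal testis, a basement membrane surrounds the cords of Sertoli and germ cells, and fibrillar collagens lie in the interstitium between them. The collagen genes were taken as every gene of the deposited expression table whose symbol is Col, a number, the letter a and a number. This gave 44 of 24739 genes, of which 38 had a mean of at least 0.5 FPKM (fragments relative to transcript length and to the size of the library) over all libraries and were tested among 13988 genes.

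RNA-Seq of whole testes at embryonic day 14.5 compared C57BL/6 embryos that were wild type (WT, n = 3) or Glis3 mutant (Mutant, n = 4). Mutant embryos were homozygous for the zf5 allele of Glis3, a zinc finger transcription factor gene, in which a deletion that takes in exon 4 is carried in every tissue of the animal and removes DNA binding. Each library came from the pair of testes of 1 embryo, was depleted of ribosomal RNA and was started from random primers without poly-A selection. The question was which transcripts differ when GLIS3 does not work. A whole testis mixes all of its cell types, so that fewer cells of a type and less RNA per cell cannot be told apart.

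Glis3 was at 7.63, 6.89 and 2.91 FPKM in the libraries labelled WT replicates 1 to 3 and at 3.86, 3.26, 2.904 and 2.66 FPKM in Mutant replicates 1 to 4. The library labelled WT replicate 3 was therefore as low as Mutant libraries, and values without it are given below. Libraries also differed in the sum of all FPKM values, which ranged from 694243 to 1018678. WT replicate 1 and Mutant replicates 1 and 2 had sums of 694243, 831918 and 776951, and the other 4 libraries had sums of 956697 and above. Rmrp and Rpph1, short noncoding RNAs, carried most of this difference, and without both the sums ranged from 476362 to 542062. Markers of Sertoli cells, fetal Leydig cells and germ cells were found in every library, as listed below. The depth behind an FPKM value is not known.

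Levels of the collagen genes spanned more than 4 orders of magnitude, from Col3a1 to Col19a1. The mean was at least 100 FPKM for 6 genes, at least 10 FPKM for 21 and at least 1 FPKM for 34. Col3a1, the chain of type III fibrils, had the highest mean in both groups and ranked 66 among all genes of the table. With Col6a1, Col1a2 and Col4a1 it made up 60.7% of the summed FPKM of the collagen genes. The share of Col3a1 alone was between 32.1% and 37.3% of that sum in each library. The 6 genes under 0.5 FPKM were Col2a1, Col6a5, Col10a1, Col19a1, Col20a1 and Col28a1. Col2a1 and Col10a1, which mark cartilage, were thus near the floor of the table in these testes.

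**Figure D1:**
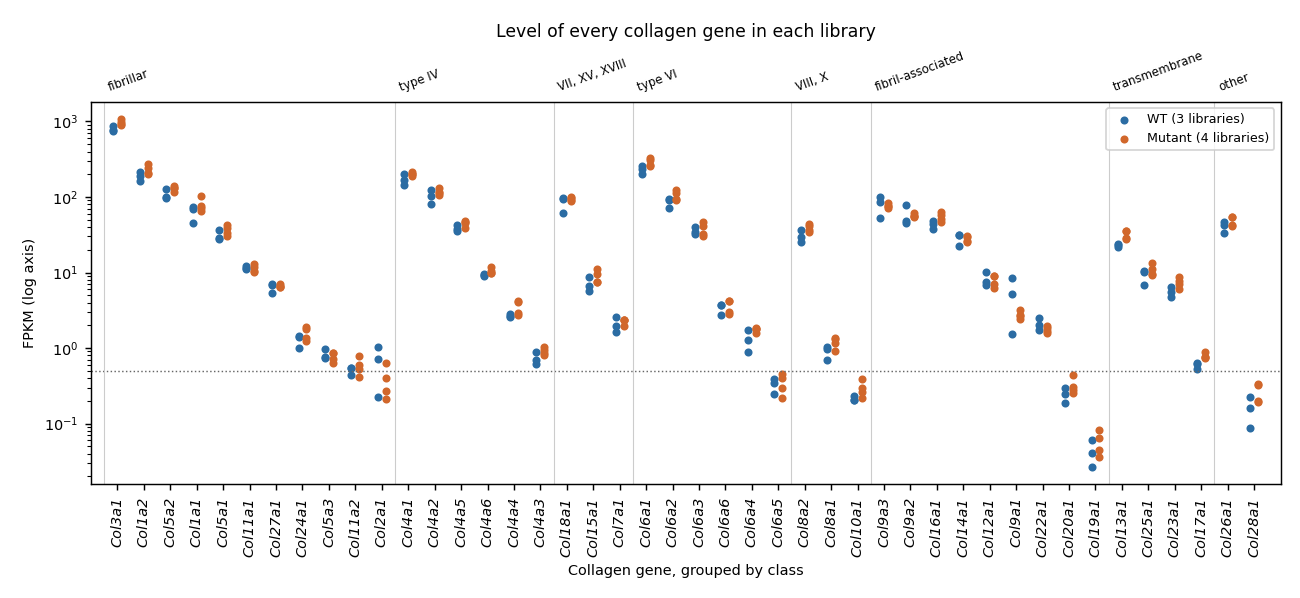
FPKM of each of the 44 collagen genes (log axis) in the 3 WT libraries (blue points) and the 4 Mutant libraries (orange points), grouped by class and ordered by mean within a class. The dotted line is the minimum mean of 0.5 FPKM for testing, and the levels of a gene differ far less between groups than levels differ between genes.

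Compared with WT, most collagen genes were slightly higher in Mutant testes, but no single gene passed the test. With limma on log2(FPKM + 0.5) and Benjamini-Hochberg adjustment over all 13988 genes, 0 of 38 collagen genes were past an adjusted p of 0.05, against 0.00715% of all genes (1 gene, Cpsf4l, lower in Mutant and named after its value was seen). At an unadjusted p under 0.05, 10 collagen genes (26.3%) were higher and 0 were lower, against 8.21% higher and 8.79% lower among all genes tested. The log2 fold change, Mutant minus WT, was above 0 for 31 of 38 collagen genes (81.6%), against 52.1% of all genes. Its median was 0.21 over the collagen genes and 0.01 over all genes. Fold changes on this scale understate the change of genes with low FPKM. Neither quantile normalization nor centring on the median changed the sign of any of the 38 values. Leaving out 1 library moved the value by over 1.5 times or across 0 in 28 of the 38 genes. The share of all genes moved in this way is not given here.

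**Figure D2:**
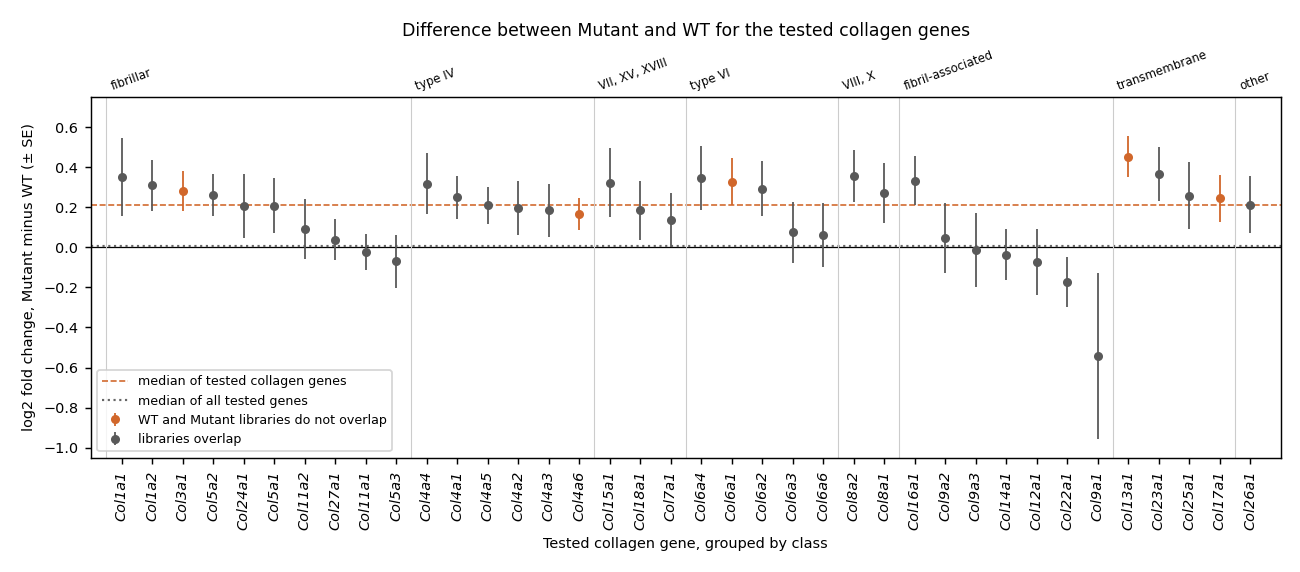
Log2 fold change (Mutant minus WT, ± standard error from limma) of the 38 tested collagen genes by class, with the median of the collagen genes (0.21, dashed) and of all tested genes (0.01, dotted). Orange points mark the 5 genes whose WT and Mutant libraries did not overlap, and of the 7 genes below 0 the lowest is Col9a1 at -0.54.

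The difference was uneven over the libraries. The summed FPKM of the 44 genes was 2413, 2320 and 2212 in the libraries labelled WT replicates 1 to 3 and 2829, 3053, 2555 and 2576 in Mutant replicates 1 to 4. The groups did not overlap in this sum, and Mutant replicates 1 and 2 stood above Mutant replicates 3 and 4. As a share of all FPKM in a library, the groups overlapped. This share was 0.348%, 0.243% and 0.231% in WT and 0.340%, 0.393%, 0.251% and 0.259% in Mutant. Rmrp and Rpph1 count in the FPKM total behind it. The median deviation from the mean of the 7 libraries, on the log2 scale, was -0.01, -0.15 and -0.10 in the WT libraries and 0.18, 0.21, -0.04 and -0.02 in the Mutant libraries. Mutant replicate 2 held the highest value of the 7 libraries for 18 of 38 genes and Mutant replicate 1 for 8. Without Mutant replicate 1 or 2, the count at an unadjusted p under 0.05 was 3 and 2 in place of 10, and without the library labelled WT replicate 3 it was 3. The share of all genes under 0.05 in these fits is not given here, so this fall cannot be read as particular to collagen genes. The number of collagen genes above 0 without these libraries was 31, 29 and 33, and their median 0.18, 0.17 and 0.21.

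Both libraries with the highest summed collagen FPKM were among the 3 libraries with a low FPKM sum over all genes. Within these 3 libraries, WT replicate 1 and Mutant replicates 1 and 2, the log2 fold change was above 0 for 30 of 38 collagen genes with a median of 0.28, against a median of -0.01 over all genes. Within the other 4 libraries, 2 of each group, it was above 0 for 29 genes with a median of 0.12, against 0.00 over all genes to 2 decimals. In a fit with the set of libraries as a term, 31 collagen genes were above 0, the median was 0.18, and 11 had an unadjusted p under 0.05. The share of all genes under 0.05 in that fit is not given here. In both sets most collagen genes were thus above 0, but 11 of the 38 had opposite signs in them. Among these were Col18a1 (-0.06 in the set with a low FPKM sum and 0.31 in the other), Col9a3 (-0.21 and 0.11), Col12a1 (-0.36 and 0.05) and Col6a3 (0.15 and -0.08).

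**Figure D3:**
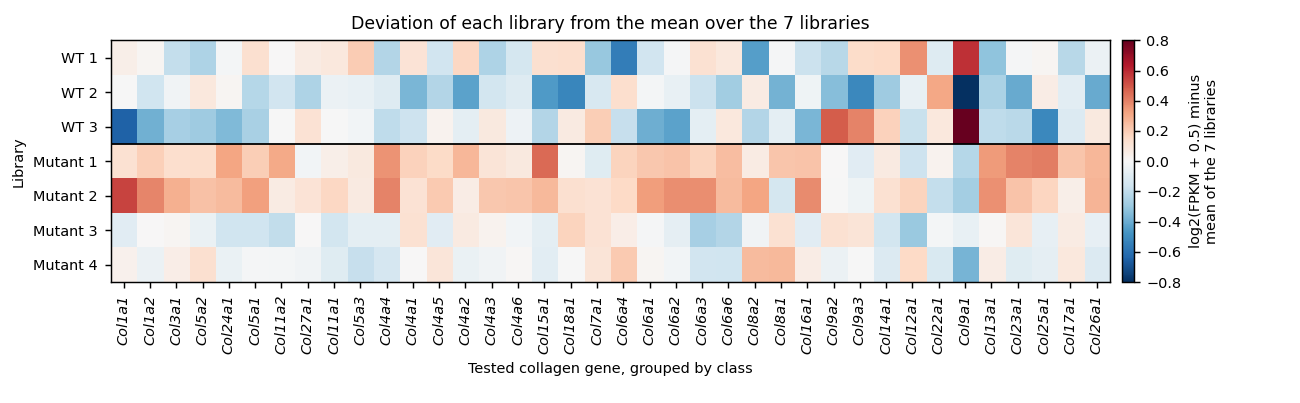
Deviation of log2(FPKM + 0.5) from the mean of the 7 libraries, for the 38 tested collagen genes (columns, by class) in each library (rows), with colours capped at 0.8 in either direction. Mutant 1 and Mutant 2 are above the mean for most genes, Mutant 3 and Mutant 4 lie close to it, and for the type IX genes WT 2 is low and WT 3 high.

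In 5 of 38 collagen genes (13.2%) every Mutant library was above every WT library, against 7.31% of all genes tested. No collagen gene had every Mutant library below every WT library, against 7.59% of all genes. The 5 genes were Col3a1, Col6a1, Col13a1, Col4a6 and Col17a1, and they belong to 4 classes. Their promoters, from 250 bases before to 50 bases after the start of the gene, are shown because these are the genes whose groups stood apart. RefSeq on GRCm38.p6 (mm10) held a promoter for 35 of the 44 genes. The positions are chr1:45311288-45311587 on the plus strand for Col3a1, and on the minus strand chr10:76725995-76726294 for Col6a1, chr10:61979059-61979358 for Col13a1, chrX:141474027-141474326 for Col4a6 and chr19:47691993-47692292 for Col17a1. Capitals mark 4 motifs, searched on both strands. They are the TATA box TATAAA, the upstream element CCAAT, the GC box GGGCGG and a run, TGGGGGG. This run was taken as the core of sites for zinc fingers of the GLI-similar family, that of GLIS3. It can overlap with the GC box.
Col3a1: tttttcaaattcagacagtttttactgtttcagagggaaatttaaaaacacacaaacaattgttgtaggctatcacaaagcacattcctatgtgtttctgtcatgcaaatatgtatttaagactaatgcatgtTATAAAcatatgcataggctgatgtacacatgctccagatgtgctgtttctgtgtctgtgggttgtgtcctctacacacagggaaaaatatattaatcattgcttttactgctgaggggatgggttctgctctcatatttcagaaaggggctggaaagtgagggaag
Col6a1: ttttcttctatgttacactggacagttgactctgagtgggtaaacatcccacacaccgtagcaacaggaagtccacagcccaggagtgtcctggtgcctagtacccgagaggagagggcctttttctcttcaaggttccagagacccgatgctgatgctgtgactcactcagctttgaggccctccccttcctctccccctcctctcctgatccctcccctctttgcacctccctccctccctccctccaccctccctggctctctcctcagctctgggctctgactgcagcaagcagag
Col13a1: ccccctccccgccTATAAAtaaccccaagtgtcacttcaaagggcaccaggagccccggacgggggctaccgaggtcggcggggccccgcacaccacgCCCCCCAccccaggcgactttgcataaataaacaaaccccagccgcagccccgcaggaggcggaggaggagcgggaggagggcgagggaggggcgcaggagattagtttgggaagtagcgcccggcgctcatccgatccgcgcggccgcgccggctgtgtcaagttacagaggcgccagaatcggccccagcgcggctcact
Col4a6: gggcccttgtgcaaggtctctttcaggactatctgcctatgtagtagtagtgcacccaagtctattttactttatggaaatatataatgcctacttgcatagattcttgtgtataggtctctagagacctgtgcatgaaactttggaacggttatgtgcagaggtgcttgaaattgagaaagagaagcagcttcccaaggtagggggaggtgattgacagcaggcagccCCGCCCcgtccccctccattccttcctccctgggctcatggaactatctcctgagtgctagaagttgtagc
Col17a1: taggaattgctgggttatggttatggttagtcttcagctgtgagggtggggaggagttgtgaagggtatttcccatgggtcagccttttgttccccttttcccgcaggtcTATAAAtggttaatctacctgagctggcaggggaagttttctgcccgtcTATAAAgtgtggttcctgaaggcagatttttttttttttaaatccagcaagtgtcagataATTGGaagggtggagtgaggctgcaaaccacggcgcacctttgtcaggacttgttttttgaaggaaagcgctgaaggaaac

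These promoters had little in common. That of Col3a1 has 37.7% G and C and a TATAAA that begins 117 bases before the start, and that of Col13a1 has 68.0% G and C with TATAAA and TGGGGGG. Col17a1 has TATAAA at 2 positions and a CCAAT, Col4a6 has a GGGCGG, and none of the 4 motifs is in the window of Col6a1. Over all 35 promoters, GGGCGG was in 22 (62.9%), against 35.7% of the 32851 promoters of the same length in the RefSeq table. TGGGGGG was in 6 (17.1%, against 8.47%), CCAAT in 12 (34.3%, against 37.4%) and TATAAA in 5 (14.3%, against 13.6%). The median G and C content was 60.0% for collagen genes and 52.7% for all promoters, and GGGCGG and TGGGGGG are themselves made mostly of G. A match is a description of the sequence and not a site of binding.

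Col13a1, a collagen that crosses the membrane of the cell and is found at adhesion sites, had the highest log2 fold change of the 38 genes. It was at 22.0, 23.1 and 23.9 FPKM in the libraries labelled WT and at 35.1, 35.7, 27.8 and 28.8 FPKM in Mutant. Mean FPKM was 23.0 ± 0.967 (SD, n = 3) in WT against 31.9 ± 4.14 (SD, n = 4) in Mutant, and the log2 fold change 0.45 (SE 0.10, limma adjusted p = 0.168). All 4 Mutant libraries were above the WT libraries, which differed little from each other. Without 1 library at a time the value was between 0.40 and 0.52, and the adjusted p over all alternatives was never below 0.0592.

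Col3a1 was at 775, 866 and 737 FPKM in the libraries labelled WT and at 969, 1076, 894 and 918 FPKM in Mutant. Mean FPKM was 793 ± 66.0 (SD, n = 3) against 964 ± 80.5 (SD, n = 4), and the log2 fold change 0.28 (SE 0.10, limma adjusted p = 0.224). The gap between the highest WT and the lowest Mutant library was smaller than the spread within either group. With quantile normalization the log2 fold change of Col3a1 went down to 0.06 (limma adjusted p = 0.835).

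Col6a1, the chain present in every type VI molecule, was at 236, 259 and 200 FPKM in WT and at 305, 331, 261 and 265 FPKM in Mutant. It differed by 0.33 on the log2 scale (SE 0.12, limma adjusted p = 0.225), and WT replicate 2 at 259 FPKM nearly reached the lowest Mutant library at 261 FPKM. Col4a6, a type IV chain, was at 8.99, 9.21 and 9.63 FPKM in WT and at 10.5, 11.7, 9.78 and 10.001 FPKM in Mutant, a log2 fold change of 0.17. Col17a1, a membrane collagen of epithelial adhesion sites, was low throughout at 0.523, 0.625 and 0.606 FPKM in WT and 0.891, 0.736, 0.7495 and 0.767 FPKM in Mutant. The log2 fold change reached 0.25 (SE 0.12, limma adjusted p = 0.331), at a level close to the minimum for testing.

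**Figure D4:**
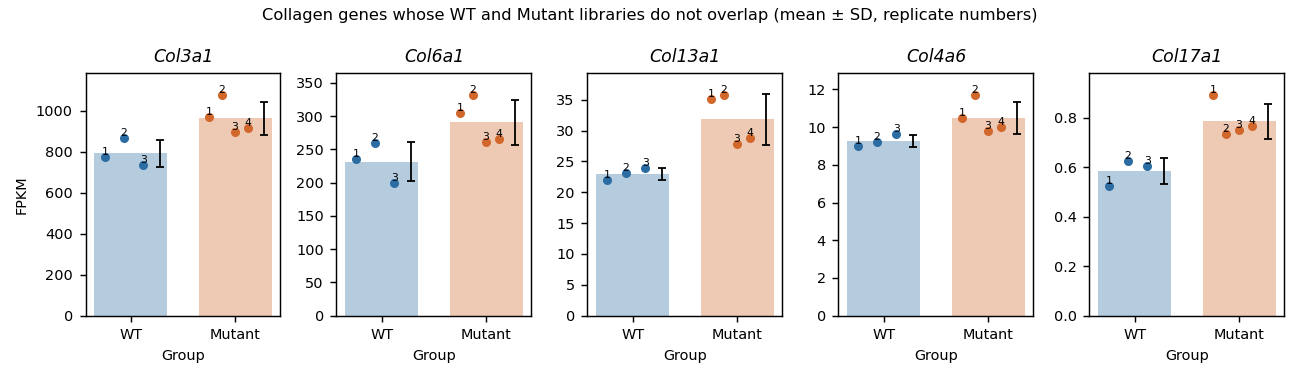
FPKM (linear axes from 0) of the 5 collagen genes whose WT and Mutant libraries did not overlap, with the mean (bar), the SD (line beside the points) and each library by its replicate number. In Col13a1 the groups are furthest apart relative to the WT spread, and in Col6a1 WT 2 and Mutant 3 almost touch.

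The fibrillar class has 11 genes, of which 10 were tested, and 8 of these were higher and 2 lower in Mutant, with a median log2 fold change of 0.21. Col1a2, Col3a1 and Col5a2 had an unadjusted p under 0.05 and none passed the threshold. Summed over the class, FPKM was 1203 ± 105 (SD, n = 3) in WT and 1462 ± 144 (SD, n = 4) in Mutant, a ratio of 1.22. Col1a1 and Col1a2 encode the chains of type I collagen, the main fibre of skin and bone. Col1a2 was at 212, 188 and 161 FPKM in WT and at 240, 275, 210 and 203 FPKM in Mutant, a log2 fold change of 0.31 (SE 0.13, limma adjusted p = 0.276). Its groups overlapped because WT replicate 1 reached the level of Mutant replicates 3 and 4.

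Col1a1 was at 72.8, 70.1 and 44.7 FPKM in WT and at 76.5, 102, 66.0 and 71.9 FPKM in Mutant. The library labelled WT replicate 3 was the lowest of the 7 and Mutant replicate 2 the highest, and without the former the log2 fold change went from 0.35 to 0.13. Col5a1 and Col5a2 encode the chains of type V collagen, which starts and limits the growth of type I fibrils. Col5a2 was at 100, 126 and 97.8 FPKM in WT and at 132, 140, 115 and 130 FPKM in Mutant (log2 fold change 0.26). Col5a1 was at 36.9, 28.7 and 28.03 FPKM in WT and at 38.7, 42.4, 30.1 and 33.4 FPKM in Mutant (log2 fold change 0.21). In both genes WT and Mutant values overlapped. Col5a2 lies tail to tail with Col3a1 on chromosome 1, with 24624 bases between them, and both had values above 0.

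The cartilage chains of the fibrillar class were low or flat. Col11a1 was at 12.1, 10.98 and 11.3 FPKM in WT and at 11.7, 12.8, 10.2 and 10.6 FPKM in Mutant, a log2 fold change of -0.02. Col11a2 was at 0.550, 0.439 and 0.543 FPKM in WT and at 0.790, 0.596, 0.413 and 0.535 FPKM in Mutant. Col2a1, with a mean just under the minimum for testing, was at 0.710, 0.226 and 1.03 FPKM in WT and at 0.268, 0.211, 0.404 and 0.634 FPKM in Mutant. Col5a3, the other fibrillar gene below 0, was at 0.976, 0.728 and 0.760 FPKM in WT and at 0.854, 0.847, 0.711 and 0.625 FPKM in Mutant (log2 fold change -0.07). Col27a1 (0.04) and Col24a1 (0.21) completed the class.

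All 6 type IV genes, which encode the network of the basement membrane, were above 0, with log2 fold changes between 0.17 and 0.32 and a median of 0.20. Their summed FPKM was 375, 275 and 326 in WT and 407, 382, 372 and 352 in Mutant, so that WT replicate 1 lay within the Mutant range. Col4a1 and Col4a2, the chains of the network found in nearly all basement membranes, held most of this sum. Col4a1 was at 201, 144 and 166 FPKM in WT and at 212, 202, 203 and 187 FPKM in Mutant (log2 fold change 0.25, SE 0.11, limma adjusted p = 0.292). Col4a2 was at 124, 81.7 and 104 FPKM in WT and at 132, 114, 116 and 106 FPKM in Mutant (log2 fold change 0.20). WT replicate 2 was the lowest library in both genes, and without it the values were 0.14 and 0.04.

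Type IV genes lie in 3 head to head pairs, in which the starts are the adjacent ends and the genes run away from each other. There were 2 bases between the deposited ends of Col4a1 and Col4a2 on chromosome 8, 71 between Col4a4 and Col4a3 on chromosome 1, and 1342 between Col4a6 and Col4a5 on chromosome X. Both promoters of the first pair are shown because the windows overlap and share a GGGCGG. They are at chr8:11312777-11313076 on the minus strand for Col4a1 and at chr8:11312555-11312854 on the plus strand for Col4a2, with capitals as above.
Col4a1: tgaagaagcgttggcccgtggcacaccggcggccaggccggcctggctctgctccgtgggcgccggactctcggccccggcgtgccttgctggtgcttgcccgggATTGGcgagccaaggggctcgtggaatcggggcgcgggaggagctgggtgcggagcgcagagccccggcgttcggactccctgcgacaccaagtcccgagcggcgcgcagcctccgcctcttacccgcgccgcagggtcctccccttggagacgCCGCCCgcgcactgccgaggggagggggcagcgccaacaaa
Col4a2: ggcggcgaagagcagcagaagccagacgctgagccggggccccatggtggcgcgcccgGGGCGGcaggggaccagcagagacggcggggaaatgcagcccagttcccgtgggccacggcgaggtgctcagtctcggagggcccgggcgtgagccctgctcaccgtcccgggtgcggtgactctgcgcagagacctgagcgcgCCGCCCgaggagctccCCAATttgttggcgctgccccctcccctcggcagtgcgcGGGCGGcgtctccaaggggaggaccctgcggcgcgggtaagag

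A GGGCGG and a CCAAT are in each of these windows, whose G and C content is 74.0% and 73.7%. The CCAAT of each window is not whole in the other. Col4a5, a type IV chain that pairs with Col4a6 or with Col4a3 and Col4a4, was at 37.7, 35.6 and 42.9 FPKM in WT and at 46.8, 48.6, 39.4 and 44.9 FPKM in Mutant (log2 fold change 0.21). Col4a4 was at 2.55, 2.85 and 2.62 FPKM in WT and at 4.11, 4.24, 2.903 and 2.78 FPKM in Mutant, the highest value of the class at 0.32. Mutant replicates 1 and 2 were well above the WT libraries, and Mutant replicate 4 was below WT replicate 2. Col4a3 was at 0.620, 0.700 and 0.899 FPKM in WT and at 0.928, 1.04, 0.853 and 0.801 FPKM in Mutant (log2 fold change 0.18).

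Of the type VI genes 5 were tested and all were above 0, with a median of 0.29. The summed FPKM of the class was 358 ± 41.5 (SD, n = 3) in WT and 439 ± 57.6 (SD, n = 4) in Mutant, a ratio of 1.23. Col6a2, which assembles with Col6a1 and lies next to it on chromosome 10, was at 95.1, 92.0 and 71.0 FPKM in WT and at 112, 124, 91.1 and 94.4 FPKM in Mutant (log2 fold change 0.29, SE 0.14, limma adjusted p = 0.321). Col6a3, the third chain of the classical molecule, was at 39.6, 32.2 and 34.3 FPKM in WT and at 41.1, 47.1, 30.2 and 32.6 FPKM in Mutant (log2 fold change 0.08). Its Mutant libraries lay on both sides of the WT libraries. Col6a4, one of the chains that can replace Col6a3, was at 0.888, 1.73 and 1.29 FPKM in WT and at 1.79, 1.77, 1.61 and 1.85 FPKM in Mutant (log2 fold change 0.35), and WT replicate 2 lay within the Mutant range. Its value was 0.17 without WT replicate 1 and 0.52 without WT replicate 2. Col6a6, another of these chains, had a value of 0.06.

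Types VII, XV and XVIII anchor or flank basement membranes, and the 3 genes had log2 fold changes between 0.14 and 0.32. Col18a1, whose protein holds the fragment endostatin, was at 98.2, 61.9 and 94.1 FPKM in WT and at 90.3, 97.5, 101 and 89.1 FPKM in Mutant (log2 fold change 0.18). Apart from WT replicate 2, all libraries were at a like level, and without that library the value was -0.03. Col15a1 had a value of 0.32 and Col7a1, the chain of anchoring fibrils, 0.14.

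Type VIII collagen forms hexagonal networks under endothelia. Col8a2 was at 25.5, 36.6 and 29.6 FPKM in WT and at 36.6, 43.5, 34.2 and 41.7 FPKM in Mutant (log2 fold change 0.35, SE 0.13, limma adjusted p = 0.236). WT replicate 2 was above Mutant replicate 3 and level with Mutant replicate 1. Col8a1 was at 1.04, 0.686 and 0.962 FPKM in WT and at 1.30, 0.901, 1.18 and 1.35 FPKM in Mutant (log2 fold change 0.27).

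In FPKM the fibril-associated class was the exception, with 2 of 7 tested genes above 0 and a median of -0.04. Type IX chains coat cartilage fibrils and have been described in the developing testis, and they led this class in level. Col9a3 was at 84.7, 53.3 and 101 FPKM in WT and at 71.8, 74.8, 82.3 and 76.3 FPKM in Mutant (log2 fold change -0.01). Col9a2 was at 48.4, 44.6 and 79.3 FPKM in WT and at 56.8, 56.5, 61.6 and 54.8 FPKM in Mutant (log2 fold change 0.05). Col9a1 was at 5.20, 1.56 and 8.385 FPKM in WT and at 2.74, 2.65, 3.14 and 2.44 FPKM in Mutant.

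For all 3 type IX genes the WT libraries reached both above and below the Mutant libraries. WT replicate 2 was the lowest of the 7 libraries and the library labelled WT replicate 3 the highest. Col9a1 had the lowest log2 fold change of the collagen genes, -0.54 (SE 0.41, limma adjusted p = 0.532), which was -1.14 without WT replicate 2 and -0.08 without the library labelled WT replicate 3. The mean log2 level of the 11 Sertoli cell markers was 4.28, 4.12 and 4.53 in the WT libraries and between 4.37 and 4.49 in the Mutant libraries, with WT replicate 2 also lowest and WT replicate 3 also highest. Its part in the type IX values was not tested.

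Col16a1, which sits in the matrix around smooth muscle and fibroblasts, was the exception within the class. It was at 43.5, 47.8 and 38.0 FPKM in WT and at 57.6, 63.8, 45.9 and 51.0 FPKM in Mutant (log2 fold change 0.33, SE 0.12, limma adjusted p = 0.234). WT replicate 2 and Mutant replicate 3 crossed, and the other libraries were apart. Col12a1 and Col14a1, which link fibrils to other matrix, were at -0.07 and -0.04 with overlapping groups. Col12a1 was at 10.3, 7.53 and 6.897 FPKM in WT and at 6.97, 8.99, 6.32 and 8.87 FPKM in Mutant. Col14a1 was at 31.2, 22.8 and 31.7 FPKM in WT and at 29.2, 30.4, 25.1 and 25.8 FPKM in Mutant. In both genes the libraries of the groups were mixed. Col22a1, found at junctions of muscle and tendon, had a log2 fold change of -0.17 and was at 1.73, 2.47 and 2.04 FPKM in WT and at 1.95, 1.60, 1.87 and 1.71 FPKM in Mutant.

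The 4 transmembrane collagens were all above 0, with a median of 0.31, and their summed FPKM was 39.0, 38.8 and 36.8 in WT and 58.0, 55.4, 45.0 and 45.0 in Mutant. The groups did not overlap in this sum, 38.2 ± 1.19 (SD, n = 3) against 50.9 ± 6.86 (SD, n = 4), and Col13a1 held most of it. Col23a1 was at 6.43, 4.78 and 5.51 FPKM in WT and at 8.69, 7.68, 6.97 and 6.03 FPKM in Mutant (log2 fold change 0.37, SE 0.14, limma adjusted p = 0.243). Mutant replicate 4 was below WT replicate 1. Col25a1, a collagen of neurons and muscle innervation, had a value of 0.26 with overlapping groups. Outside these classes, Col26a1, first described in testis and ovary, was at 43.1, 33.6 and 47.1 FPKM in WT and at 53.6, 53.9, 42.5 and 41.3 FPKM in Mutant (log2 fold change 0.21). Its Mutant replicates 3 and 4 lay among the WT libraries.

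Chains that assemble into one molecule were also compared as ratios of FPKM within a library. Col4a1 over Col4a5 and Col3a1 over Col1a2, chains of different molecules, were added to these. In each of the 13 ratios the WT and Mutant libraries overlapped. The smallest exact permutation p was 0.171 (two-sided, Col6a1 over Col6a3, 6.60 ± 1.24 with n = 3 against 7.80 ± 0.721 with n = 4), or 0.857 after Benjamini-Hochberg adjustment over the 13 ratios. With 3 and 4 libraries this exact test cannot give less than 0.0286. The ratio of Col4a1 to Col4a2 was between 1.59 and 1.77 in the 7 libraries, and that of Col1a1 to Col1a2 between 0.278 and 0.373. The ratio of Col4a5 to Col4a6 was between 3.87 and 4.49 and that of Col6a1 to Col6a2 between 2.48 and 2.86. The ratio of Col9a3 to Col9a1 varied more, between 12.02 and 34.2, and both of these were in WT libraries.

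Reads on LINE, SINE and LTR elements lying whole within a gene gave another readout of the same libraries, mostly from introns, since total RNA was sequenced. Raw read counts were summed per gene, and genes with a mean of at least 10 reads were tested with edgeR's quasi-likelihood test. None of the 39 collagen genes tested was past an adjusted p of 0.05, against 0.00815% of 12266 genes (1 gene, Rimbp2, lower in Mutant and named after its value was seen). At an unadjusted p under 0.05, 8 collagen genes were higher and 0 lower, against 6.66% higher and 5.97% lower among all genes. DESeq2 called 0 collagen genes, and 6 were under 0.05 before adjustment. The log2 fold change was above 0 for 32 of 39 collagen genes (82.1%), against 49.8% of all genes, with a median of 0.14 against -0.001 over all genes. With loci clear of annotated exons, chosen after seeing the data, 30 of 37 genes were above 0 with a median of 0.17. The share above 0 and the median of all genes in that fit are not given here. These reads come from the same RNA as the FPKM values and are not independent support for them.

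For Col4a1, 73 loci gave 623, 408 and 579 reads in the libraries labelled WT and 598, 507, 484 and 546 reads in Mutant. As CPM (counts relative to library size after TMM scaling), WT stood at 155 ± 16.0 (SD, n = 3) and Mutant at 183 ± 12.8 (SD, n = 4) without overlap (log2 fold change 0.24, edgeR adjusted p = 0.327). Col23a1 had 446, 291 and 362 reads in WT and 478, 387, 355 and 361 reads in Mutant, or 106 ± 7.10 CPM (SD, n = 3) against 136 ± 18.1 CPM (SD, n = 4) (log2 fold change 0.35, edgeR adjusted p = 0.229). In CPM, every Mutant library was above every WT library for both genes, and also for Col6a5, which had few reads. The share of all genes without overlap in CPM is not given here, so this cannot be read as particular to these genes. Col3a1, Col6a1, Col13a1, Col4a6 and Col17a1, which did not overlap in FPKM, overlapped in CPM. Col16a1 (0.43) and Col4a4 (0.50) also had values above 0.

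For other genes the readouts were apart. Col13a1 had 254, 179 and 193 reads in WT and 183, 167, 186 and 185 reads in Mutant, a log2 fold change of 0.03 beside 0.45 in FPKM. Col8a2, with 11 to 29 reads per library, was at -0.48 beside 0.35 in FPKM, and Col4a6 was at -0.14 beside 0.17. Col28a1 (0.68), Col19a1 (0.68) and Col6a5 (0.81), too low for testing in FPKM, were above 0 at 7 to 39 reads per library. At such counts, counting error alone is large. By class, 5 of 8 fibril-associated genes were above 0 in repeat reads with a median of 0.22, unlike in FPKM, and 0 of 2 network-forming genes (median -0.24). Col10a1 had no locus.

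The machinery around the collagens was described by 6 lists of genes. Collagen chain modification and folding had 19 of 22 tested genes above 0, with a median of 0.14. P3h3, named as one of the prolyl hydroxylase family, was at 41.9 ± 2.49 FPKM (SD, n = 3) in WT and 50.7 ± 5.78 (SD, n = 4) in Mutant without overlap (log2 fold change 0.26). Ppib, which isomerizes prolines, had 0.29 without overlap. P4ha1, a subunit of prolyl 4-hydroxylase, was the other way without overlap, at 33.9 ± 4.46 FPKM (SD, n = 3) in WT and 29.8 ± 1.05 (SD, n = 4) in Mutant (log2 fold change -0.18). Procollagen processing and cross-linking had 13 of 14 above 0 with a median of 0.13, and there Pcolce, an enhancer of procollagen cleavage (0.17), and the lysyl oxidase Loxl4 (0.19) did not overlap.

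Collagen receptors had 6 of 8 tested genes above 0 with a median of 0.10, and the integrin subunit Itgb1 (0.19) did not overlap. Proteases that degrade collagen and their inhibitors had 11 of 11 above 0 with a median of 0.16, and Mmp11 (0.21) did not overlap. Proteins of the basement membrane other than collagens had 18 of 24 above 0 with a median of 0.06, below the 0.20 of the type IV genes, a difference that was not tested. Smoc2, which binds calcium, was at 41.2 ± 1.76 FPKM (SD, n = 3) in WT and 53.3 ± 8.12 (SD, n = 4) in Mutant without overlap (log2 fold change 0.36). Proteoglycans and glycoproteins that bind collagen had 14 of 18 above 0 with a median of 0.16, and Fbln1 (0.18) did not overlap. None of the 97 tested genes of the 6 lists was past the threshold (limma with Benjamini-Hochberg adjustment). An unadjusted p under 0.05 was seen for 13, all higher, against 8.21% higher and 8.79% lower among all genes tested. Of all genes tested, 7.31% were higher and 7.59% lower without overlap. The genes named for this from these lists, and from the marker lists below, are to be read beside those shares.

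**Figure D5:**
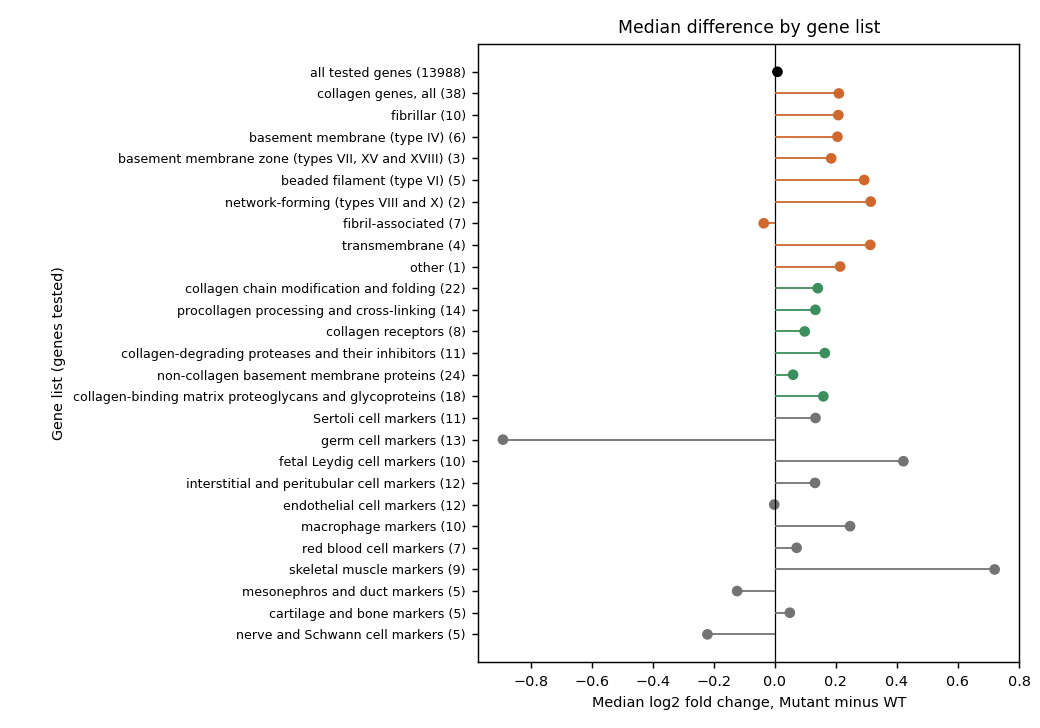
Median log2 fold change (Mutant minus WT) of all tested genes (black), the collagen genes and their classes (orange), 6 lists of collagen-related genes (green) and 11 lists of cell type markers (grey), with the number of genes tested. The collagen median of 0.21 lies between those of fetal Leydig cell markers at 0.42 and germ cell markers at -0.89.

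Markers of several cell types differed between the groups as well. All 13 germ cell markers were lower, 8 of them at an unadjusted p under 0.05, with a median of -0.89 and a summed FPKM of 891 to 1788 in WT and 722 to 838 in Mutant. Their mean log2 level was 5.77, 5.55 and 4.48 in the libraries labelled WT replicates 1 to 3 and between 4.19 and 4.63 in Mutant, so that the third library lay within the Mutant range here too. All 10 fetal Leydig cell markers were higher, 8 of them at an unadjusted p under 0.05, with a median of 0.42. Their summed FPKM was 2010 to 3184 in WT and 3043 to 3730 in Mutant. At that p, 8.21% of all genes tested were higher and 8.79% lower. Sertoli cell markers had 9 of 11 above 0 with a median of 0.13 (345 to 506 FPKM in WT, 433 to 521 in Mutant). Interstitial and peritubular cell markers, from cells that make fibrillar collagen, had 10 of 12 above 0 with a median of 0.13 (420 to 427 FPKM in WT, 424 to 526 in Mutant). Insl3 (0.66), Cyp11a1 (0.55), Fdx1 (0.43) and Scarb1 (0.38) of the Leydig list, Acta2 (0.32) and Myh11 (0.49), genes of contractile cells, of the interstitial and peritubular list, and Ddx4 (-1.08), Utf1 (-1.03), Dazl (-0.86) and Sall4 (-0.68) of the germ cell list had groups that did not overlap. None of these lists had a gene at 0 in all libraries, and the part of any of them in the collagen values was not tested.

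Endothelial cell markers had 6 of 12 above 0 with a median of -0.0021, and macrophage markers 10 of 10 with a median of 0.25. Csf1r (0.20) and C1qc (0.53) of the macrophages, Lect1 (0.61) of cartilage, Tubb3 (0.69) of nerve and Lhx1 (-0.79) of the mesonephros had groups that did not overlap. Red blood cell markers had 4 of 7 above 0 (0.07), cartilage and bone markers 4 of 5 (0.05), markers of mesonephros and duct 2 of 5 (-0.12) and of nerve and Schwann cells 2 of 5 (-0.22). Of the cartilage and bone list, Matn1, Matn3, Runx2, Sp7, Bglap and Ibsp were under the minimum for testing. Skeletal muscle markers had 9 of 9 above 0, with the largest median of the lists on the higher side, 0.72, and varied widely within each group. Their summed FPKM was 6.76 to 53.4 in WT and 7.22 to 77.9 in Mutant, and their mean log2 level was 2.15, 0.17 and 0.13 in WT and 1.67, 1.55, 0.04 and 2.82 in Mutant. Mutant replicates 1 and 2, with the highest summed collagen FPKM, were between Mutant replicates 3 and 4 in these markers. The part of these markers was not tested.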

How the data were processed

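RNA-Seq libraries of whole testes at E14.5 (3 WT, 4 Mutant) were grouped by their labels. The authors mapped quality-filtered reads to mm10 with TopHat2 2.0.12, without strand, and made FPKM values per RefSeq gene with Cuffquant and Cuffnorm; the deposited FPKM values carry that library scaling. The authors also made read counts per RepeatMasker element with HTSeq from uniquely mapped reads, and the deposited counts of LINE, SINE and LTR loci are not normalized. In both header lines the names of WT replicate 3 and Mutant replicate 1 run together, and columns were read by position after splitting there. Without strand, reads of overlapping antisense genes cannot be told apart.

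With limma 3.58.1 in R 4.3.3, log2(FPKM + 0.5) was compared for genes averaging 0.5 FPKM or more (lmFit, eBayes with trend, two-sided, Benjamini-Hochberg, threshold 0.05). Cuffdiff needs aligned reads and was not run. Repeat reads over all loci totalled between 3454317 and 4670830 per library. Of these reads, 79.5% were on loci whole within 1 deposited gene span (exons from GENCODE M21, bedtools 2.31.1). Sums per gene with a mean of at least 10 reads were tested with edgeR 4.0.16 (quasi-likelihood, TMM). The tested sums totalled between 2719041 and 3724793 reads per library. DESeq2 1.42.0 was an alternative. On simulated data (200 genes shifted by 1.5 log2 units), limma recovered 97.5% over 13988 genes with 10 false calls. There edgeR recovered 94.5% over 12266 genes with 9 false calls. The simulated noise was drawn separately for each gene and library, without differences between libraries that many genes share. Recovery with such shared differences was not tested. Collagen log2 fold changes in FPKM lay between -0.54 and 0.45, and recovery of changes of that size was not tested. Other steps used Python 3.11.15.

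The collagen genes, their classes and the 17 gene lists (6 of collagen-related genes and 11 of cell type markers) were chosen with earlier results of these data known. Libraries are given in full for genes whose groups do not overlap, the leading gene of each class, chains that share a molecule, the 5 highest and 5 lowest fold changes and genes that a single library decides. From each list, genes without overlap are named, up to 4. Alternatives were pseudocounts, filters, scalings, array weights, a fit without trend, a replicate block, leaving out each library, DESeq2, and, added after seeing the data, the set of libraries by FPKM sum and loci clear of exons. All sample columns were used.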

Additional observations from a re-analysis of the deposited data

Results flagged for a closer look

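Col7a1, the chain of the anchoring fibrils that fasten a basement membrane to the matrix below it, was at 1.99 FPKM in Mutant replicate 1, while the other Mutant libraries were at 2.35, 2.37 and 2.38 FPKM. The gap below the other libraries took up 0.945 of the range of the group, above Dixon's critical value for 4 samples. The libraries labelled WT were at 1.65, 1.93 and 2.55 FPKM, so that the value lay within their range. The 44 collagen genes were each examined in this way in the Mutant group, and chance alone picks out about 1 in 20 groups, more than the 1 found.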

How the results depend on the processing

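No collagen gene passed the threshold under any alternative for FPKM or repeat reads, and the number above 0 stayed between 27 and 35 when 1 library was left out, with a median between 0.16 and 0.26. The number of all genes past the threshold was 4 without a filter, 3 with quantile normalization, 0 with the replicate block and 1 to 720 with 1 library left out (720 without the library labelled WT replicate 3, 5 without WT replicate 2), against 1. For repeat reads it was 48 with DESeq2, 47 without a filter, 28 with loci clear of exons, 0 with the replicate block and 0 to 138 with 1 library left out (138 without the library labelled WT replicate 3), against 1. Collagen genes whose groups did not overlap numbered 9 after centring on the median and 5 to 11 with 1 library left out (higher in Mutant), and 0 to 3 (lower, 3 without WT replicate 2). The shares of all genes in these settings are not given here, and fewer libraries leave more genes apart. Within the 4 libraries with a high FPKM sum, 18.1% of all genes were higher without overlap, against 7.31% over all libraries. The rise to 11 thus cannot be read as particular to collagen genes. Array weights gave 6 collagen genes at an unadjusted p under 0.05, against 10. For the alternatives, the shares of all genes under 0.05 before adjustment are not given here. With 1 library left out, log2 fold changes crossed 0 for 10 of 38 collagen genes: Col12a1 (-0.18 to 0.090), Col14a1 (-0.19 to 0.046), Col5a3 (-0.12 to 0.014), Col9a3, Col9a2, Col11a1, Col27a1, Col6a3, Col6a6 and Col18a1. Quantile normalization took Col3a1 from 0.28 to 0.06. The cause was not tested in these cases, and the share of all genes that crossed 0 is not given here. Nothing in the labels ties replicate numbers to litters. Same-numbered libraries had correlations of 0.20, -0.18 and 0.23 in their deviations. WT replicates 1 and 3 correlated best with their own number and WT replicate 2 with Mutant replicate 1. The replicate block, to which Mutant replicate 4 adds nothing, gave 15 collagen genes at an unadjusted p under 0.05 and a median of 0.24. FPKM depth is unknown, which limits what the 6 untested genes and those near 0.5 FPKM can show.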
